A study of Homo sapiens with 12 samples.

Results

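The mRNA levels of 7 genes that handle carbonic acid and lactic acid were examined in glioblastoma cells with one or both hypoxia-inducible factors knocked out. The 7 genes were listed by name, with earlier results of these data known: the carbonic anhydrases CA9, CA12 and CA2, the lactate carriers SLC16A1 and SLC16A3, their chaperone BSG, and the bicarbonate importer SLC4A7. All 7 were found among the 20263 genes of the deposited table, and all 7 passed the filter on low values. U87 (U-87 MG), an established human glioblastoma line, was cultured at 1% O2 in every group, so no normoxic library entered the comparisons. The 4 groups were cells carrying the empty vector (vector), cells with HIF1α knocked out (HIF1α-ko), cells with HIF2α knocked out (HIF2α-ko) and cells with both knocked out (HIF1α/2α-ko), with 3 libraries each. The record of the sequencing gives 72 h of hypoxia, whereas the general methods of the study give a shorter exposure for mRNA detection. For other assays those methods give 3 days at 1% O2 together with temozolomide. The sample labels name no temozolomide. Whether a knockout group was a single clone or a pool is not given in the sources used here, nor is it said that the libraries of a group came from separate cultures. The p-values therefore measure only the spread between these libraries, which may be technical.

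Hypoxic cells that rely on glycolysis release lactate together with protons, and they also release carbon dioxide. The membrane enzymes CA9 and CA12 hydrate carbon dioxide outside the cell to bicarbonate and a proton, CA2 catalyses the same reaction in the cytosol, and SLC4A7 (NBCn1) carries bicarbonate with sodium back into the cell. SLC16A1 (MCT1) and SLC16A3 (MCT4) move lactate and a proton together across the plasma membrane, and both need BSG (basigin, CD147) to reach it. CA9 is a textbook target of HIF1α and a common tissue marker of hypoxia in glioma, and SLC16A3 is the lactate carrier usually raised by hypoxia.

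The measure was TPM, a unit of transcript abundance that divides reads by gene length and scales every library to the same total, so levels can be set side by side between genes but sequencing depth is unknown. Columns summed to between 999955 and 999982, and the 10 highest genes took 18.2% to 23.9% of a library. Vector replicate 1 stood apart from the other vector libraries, with Pearson's r of 0.968 and 0.966 across genes compared with 0.989 between the other pair. Replicate 1 also stood apart in each knockout group, by less. Its r was 0.975 and 0.977 in HIF1α/2α-ko, compared with 0.992 between the other pair. In HIF1α-ko these values were 0.982, 0.983 and 0.991, and in HIF2α-ko 0.985, 0.985 and 0.992. For the 7 genes, changes whose call turns on vector replicate 1 are given with and without it. Of 204 changes against vector tested in the wider lists of acid-handling genes, 23 gained and 4 lost their call without it. Calls over all genes rose without it as well. In HIF2α-ko they went from 595 higher and 691 lower to 1302 and 1192. In HIF1α-ko they went from 2031 and 1029 to 2825 and 1362, and in HIF1α/2α-ko from 3732 and 1741 to 3875 and 1792. Calls gained without vector replicate 1 are therefore not particular to the genes described here. Of the glioma line markers, VIM (5635 to 14690 TPM) and CD44 (399 to 1412 TPM) were high, NES was low (2.64 to 6.17 TPM), OLIG2 ranged from 0.884 to 19.2 TPM, GFAP, S100B and SOX2 stayed at or below 0.837 TPM, and CDKN2A, deleted in this line, was listed at 0 in all 12 libraries. VIM was lower than vector in HIF2α-ko (log2 change -0.81, adjusted p = 0.00858) and HIF1α/2α-ko (-0.96, adjusted p = 0.000412), and OLIG2 was higher in HIF1α/2α-ko (2.31, adjusted p = 0.000828); their part in the results was not tested. Markers of immune, epithelial, endothelial, liver and neuronal cells summed to between 0.339 and 1.79 TPM per library.

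The targeted genes were reduced rather than absent. HIF1A, which encodes HIF1α, was at 112, 110 and 151 TPM in vector and at 57.3, 49.5 and 38.6 TPM in HIF1α-ko, a log2 change of -1.34 (adjusted p = 0.000851). In HIF1α/2α-ko it was at 89.2, 67.8 and 69.4 TPM, below every vector library (log2 change -0.71, adjusted p = 0.0104). It was higher there than in HIF1α-ko (0.64, adjusted p = 0.0287), and its difference from HIF2α-ko, at 108, 76.1 and 76.6 TPM, did not pass (-0.19, adjusted p = 0.453). EPAS1, which encodes HIF2α, was at 286, 333 and 346 TPM in vector, at 87.6, 118 and 116 TPM in HIF2α-ko and at 101, 120 and 130 TPM in HIF1α/2α-ko. Both EPAS1 falls passed the test (log2 changes -1.59 and -1.45, adjusted p = 0.000375 and 1.30e-05). The position of the edits is not given in the sources used here, so these mRNA levels check the labels only in part.

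Promoter sequence was searched for the short core of the hypoxia response element, the DNA motif that HIF complexes are known to bind. RefSeq windows (build GRCh38.p14, 250 bases before to 50 bases after the annotated start) were matched for 5 of the 7 genes, 11 windows in all, with none matched for CA2 or SLC16A1. The cores ACGTG and GCGTG were searched on both strands, and the letters of every match are in capitals in the stretches below, which run 5′ to 3′ on the strand of the gene and end at the base before the start. CA9 and SLC16A3 are shown because HIF1α-ko lowered both, CA12 because only HIF1α/2α-ko lowered it, and BSG because its mRNA moved least. They lie at chr9:35673678-35673927 (plus strand), chr15:63381847-63382096 (minus strand), chr17:82228792-82229041 (plus strand, the second of 5 SLC16A3 windows) and chr19:572346-572595 (plus strand, the second of 2 BSG windows). For SLC16A3 and BSG, the window shown is the only window of the gene that holds ACGTG. Windows 1 and 3 of SLC16A3 and window 1 of BSG held neither core. The 50 bases after the start were found in 1 of 22 SLC16A3 transcripts, against 2 or 3 for its other windows. For BSG they were found in 7 of 16, against 1.
CA9: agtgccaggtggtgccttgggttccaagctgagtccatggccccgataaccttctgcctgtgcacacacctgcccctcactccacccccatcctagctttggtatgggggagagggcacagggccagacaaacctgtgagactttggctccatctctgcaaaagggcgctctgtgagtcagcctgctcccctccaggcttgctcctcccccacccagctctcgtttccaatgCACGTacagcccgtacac
CA12: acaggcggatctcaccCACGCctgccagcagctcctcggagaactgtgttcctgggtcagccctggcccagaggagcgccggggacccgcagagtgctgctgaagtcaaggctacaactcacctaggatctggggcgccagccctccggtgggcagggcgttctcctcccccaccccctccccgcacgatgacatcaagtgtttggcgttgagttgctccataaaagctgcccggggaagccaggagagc
SLC16A3: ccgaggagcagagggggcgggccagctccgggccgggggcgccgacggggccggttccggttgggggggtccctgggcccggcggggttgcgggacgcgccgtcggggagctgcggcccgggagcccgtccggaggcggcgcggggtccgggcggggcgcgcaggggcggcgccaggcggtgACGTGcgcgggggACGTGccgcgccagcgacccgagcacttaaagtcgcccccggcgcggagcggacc
BSG: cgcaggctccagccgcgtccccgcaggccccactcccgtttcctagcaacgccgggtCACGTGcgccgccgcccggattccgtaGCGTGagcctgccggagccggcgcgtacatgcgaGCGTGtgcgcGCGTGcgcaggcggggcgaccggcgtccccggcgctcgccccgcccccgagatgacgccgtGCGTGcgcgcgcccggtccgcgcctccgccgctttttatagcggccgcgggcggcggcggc

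The CA9 stretch held 1 ACGTG, read on the opposite strand, whose leftmost base lies 18 bases before the start (position -18). The SLC16A3 stretch held 2 ACGTG on the strand of the gene, at positions -68 and -55. In CA12 no ACGTG was found, and its 2 GCGTG matches, at -234 and at 40 after the start, were both on the opposite strand. BSG held a palindrome, CACGTG, that reads as ACGTG on both strands from -193 and -192, and 4 GCGTG. Over the 11 windows, 3 held ACGTG and 5 held GCGTG, and the first SLC4A7 window carried 3 GCGTG and no ACGTG. Among 35116 windows of all genes, 21.4% held ACGTG, 36.5% held GCGTG, 48.5% held either and 8.82% held ACGTG at least 2 times. A single CACGTG counts as 2 in that last share, because it reads as ACGTG on both strands. These matches are descriptions of letters, and no binding was measured.

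The log2 changes and p-values come from limma on log2(TPM + 1) over 11731 genes, with all 4 groups in 1 model and Benjamini-Hochberg adjustment at 0.05. Values given as N-fold are ratios of the mean TPM of the groups, and for low genes they are larger than the log2 change gives, because the added 1 shrinks it. In HIF1α-ko against vector, CA9 and SLC16A3 fell and CA2 rose, 2 of 7 lower and 1 of 7 higher, where 8.77% and 17.3% of all tested genes passed in those directions. HIF2α-ko raised SLC16A3 and lowered none of the 7, against 5.07% higher and 5.89% lower over all genes. HIF1α/2α-ko lowered CA9 and CA12 and raised SLC4A7, against 14.8% lower and 31.8% higher. With so few members these shares describe the list and set nothing apart from the background. The median log2 change of the 7 genes was 0.45, 0.44 and -0.16 in the 3 knockout groups, beside 0.18, -0.04 and 0.21 over all tested genes, so a change of about 0.2 in HIF1α-ko or HIF1α/2α-ko is no more than the shift of the whole table. After median ratio scaling, which removes that shift, the medians over all genes were 0.01, -0.00 and -0.00. With that scaling the calls over all genes split into 1285 higher and 1545 lower for HIF1α-ko (2031 and 1029 as deposited), 761 higher and 579 lower for HIF2α-ko (595 and 691), and 2760 higher and 2698 lower for HIF1α/2α-ko (3732 and 1741). The bulk libraries cannot tell fewer cells expressing a gene from less RNA per cell.

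**Figure D1:**
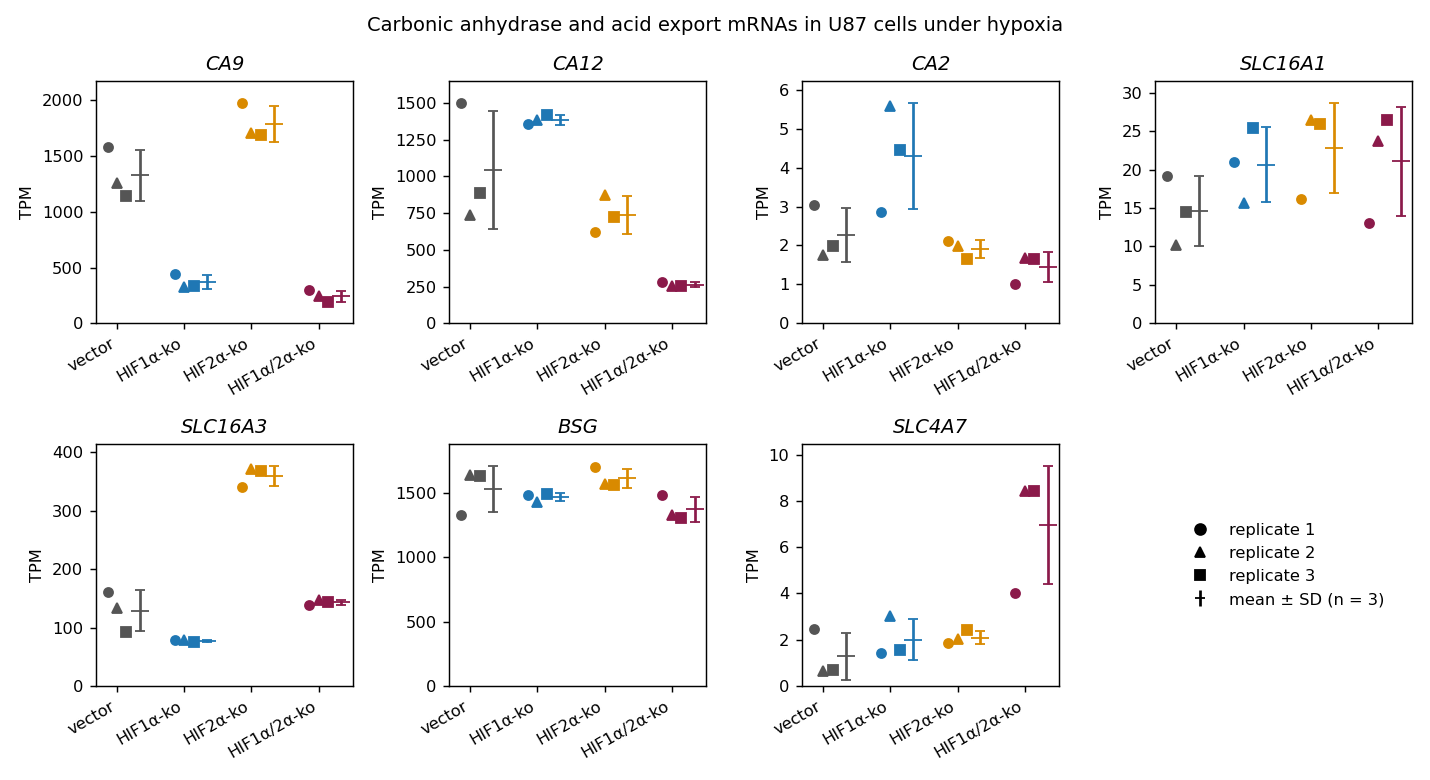
TPM of the 7 genes in each library (circle, triangle and square for replicates 1, 2 and 3), with the mean and SD of 3 libraries at the right of each group; each panel has its own axis from 0. In the plots CA9 was low in both groups with HIF1α knocked out, CA12 was low only in HIF1α/2α-ko, and SLC16A3 was highest in HIF2α-ko.

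CA9 was among the most abundant mRNAs of the vector cells and fell in both groups with HIF1α knocked out. CA9 (ENSG00000107159, chr9:35673856-35681159, GRCh38, plus strand) encodes the extracellular carbonic anhydrase IX. Its level was 1584, 1259 and 1143 TPM in vector, and 440, 329 and 335 TPM in HIF1α-ko. The groups did not overlap, and the means of 1329 ± 229 and 368 ± 62.4 TPM (SD, n = 3) differed 3.61-fold, a log2 change of -1.85 (SE 0.17, adjusted p = 9.58e-05). In HIF1α/2α-ko the libraries stood at 295, 242 and 195 TPM, 5.45-fold below vector (log2 change -2.45, adjusted p = 1.52e-06). Set against the shift of the whole table the changes were -2.03 and -2.65. By rank within a library, CA9 went from place 91 to 130 in vector to place 335 to 438 in HIF1α-ko and 486 to 738 in HIF1α/2α-ko.

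CA9 was not lower in HIF2α-ko. HIF2α-ko stood at 1977, 1705 and 1694 TPM, above every vector library, but the difference missed the threshold (log2 change 0.44, 95% interval 0.06 to 0.82, adjusted p = 0.125). Without vector replicate 1 it passed (0.57, adjusted p = 0.0386). Between the groups with HIF1α knocked out, the dual knockout held 1.51-fold less CA9 (log2 change -0.60, adjusted p = 0.0220). That last call was lost after median ratio scaling (-0.65, adjusted p = 0.0512) and without HIF1α-ko replicate 1 or HIF1α/2α-ko replicate 2 or 3 (adjusted p = 0.0893, 0.0573 and 0.0986). The order of CA9 was thus HIF2α-ko, vector, HIF1α-ko and HIF1α/2α-ko, and the first neighbours in that order did not pass the test. The exons of CA9 overlap ARHGEF39 on the opposite strand, and whether counting used strand is not given in the sources used here, so reads in the overlap cannot be assigned.

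CA12 fell only in the dual knockout. CA12 (ENSG00000074410, chr15:63321378-63382161, minus strand) encodes the second extracellular enzyme, carbonic anhydrase XII. It was at 1498, 736 and 890 TPM in vector, and at 280, 254 and 254 TPM in HIF1α/2α-ko. Every dual knockout library lay below every other library of the series, and the means of 1041 ± 403 and 263 ± 15.3 TPM (SD, n = 3) differed 3.96-fold (log2 change -1.92, SE 0.21, adjusted p = 2.49e-05). HIF1α-ko held 1353, 1383 and 1417 TPM and HIF2α-ko held 618, 875 and 725 TPM, both overlapping vector. Against vector neither passed (log2 change 0.48, adjusted p = 0.111, and -0.44, adjusted p = 0.203). Vector replicate 1 carried the highest CA12 value of all 12 libraries, and without it the difference in HIF1α-ko passed (0.77, adjusted p = 0.00176). The single knockouts differed from each other, with 1.87-fold more CA12 in HIF1α-ko than in HIF2α-ko (log2 change 0.92, adjusted p = 0.00879). HIF1α/2α-ko lay 5.27-fold below HIF1α-ko (log2 change -2.39, adjusted p = 2.55e-05) and 2.81-fold below HIF2α-ko (-1.48, adjusted p = 0.000150).

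CA9 and CA12 changed places between the single knockouts. Together they made up 89.5% to 98.3% of the TPM summed over 15 carbonic anhydrase genes. CA9 held 50.5%, 61.8% and 55.0% of that sum in vector, 23.9%, 18.7% and 18.6% in HIF1α-ko, and 74.7%, 64.7% and 68.5% in HIF2α-ko. CA12 held the larger share in all 3 HIF1α-ko libraries (73.5%, 78.5% and 78.9%) and the smaller one in all 3 HIF2α-ko libraries (23.3%, 33.2% and 29.3%). In HIF1α/2α-ko the enzymes were near balance, with 46.6%, 44.1% and 38.9% for CA9 and 44.4%, 46.2% and 50.6% for CA12. The summed level was 3136, 2038 and 2077 TPM in vector, 1841, 1761 and 1797 TPM in HIF1α-ko, and 2648, 2635 and 2474 TPM in HIF2α-ko. It was 632, 549 and 501 TPM in HIF1α/2α-ko, below every other library.

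**Figure D2:**
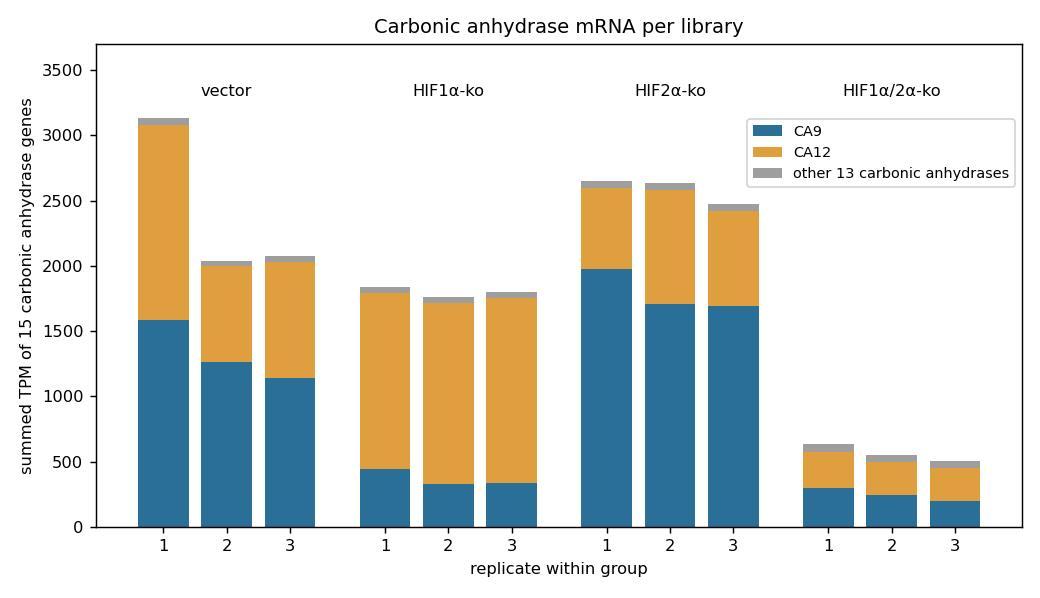
Summed TPM of 15 carbonic anhydrase genes in each of the 12 libraries (bars from 0), divided into CA9, CA12 and the other 13 genes. The HIF1α-ko bars are mostly CA12, the HIF2α-ko bars mostly CA9, and the HIF1α/2α-ko bars reach 501 to 632 TPM.

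CA2 stayed low in every group. CA2 (ENSG00000104267, chromosome 8, plus strand), the cytosolic enzyme, was at 3.04, 1.77 and 1.99 TPM in vector and at 2.86, 5.57 and 4.46 TPM in HIF1α-ko. These groups overlapped, and the rise (means 2.27 ± 0.683 and 4.30 ± 1.36 TPM, SD, n = 3; log2 change 0.68, adjusted p = 0.0385) lay close to the threshold. It was lost with a pseudocount of 0.1 (adjusted p = 0.0512), with no filter (0.0612), after median ratio scaling (0.0563), when only the compared groups were fitted (0.0831), and when replicate 2 or 3 of vector, of HIF1α-ko or of HIF2α-ko was left out (0.0514 to 0.155). HIF2α-ko was at 2.11, 1.98 and 1.65 TPM and HIF1α/2α-ko at 0.997, 1.68 and 1.65 TPM, and neither passed against vector (adjusted p = 0.719 and 0.142). Under median ratio scaling or quantile normalization the difference in HIF1α/2α-ko did pass (log2 change -0.57 under each, adjusted p = 0.0258 and 0.0159). HIF1α-ko and HIF1α/2α-ko did not overlap, and CA2 was 2.98-fold lower in the dual knockout (log2 change -1.10, adjusted p = 0.00322).

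SLC16A3 moved in opposite directions in the single knockouts. SLC16A3 (ENSG00000141526, chr17:82228397-82261129, plus strand) encodes MCT4, the lactate exporter of glycolytic cells. Its level was 161, 133 and 91.6 TPM in vector, 78.7, 78.0 and 74.8 TPM in HIF1α-ko, and 340, 371 and 368 TPM in HIF2α-ko. Every HIF1α-ko library lay below and every HIF2α-ko library above all vector libraries. The mean of 129 ± 34.9 TPM in vector compared with 77.2 ± 2.10 TPM in HIF1α-ko, 1.67-fold lower (log2 change -0.69, adjusted p = 0.0101), and with 360 ± 17.2 TPM in HIF2α-ko, 2.80-fold higher (1.51, adjusted p = 0.000882; SD, n = 3). The single knockouts differed 4.66-fold from each other (log2 change -2.21, adjusted p = 4.07e-06).

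In the dual knockout, SLC16A3 lay in the range of vector. HIF1α/2α-ko held 139, 147 and 144 TPM, inside the span of the vector libraries (log2 change 0.19, 95% interval -0.17 to 0.55, adjusted p = 0.365). The sign of this difference was not settled, since it was -0.057 after median ratio scaling, and without vector replicate 1 it passed at 0.37 (adjusted p = 0.0446). The dual knockout was 1.86-fold above HIF1α-ko (log2 change 0.88, adjusted p = 0.00201) and 2.51-fold below HIF2α-ko (-1.32, adjusted p = 5.67e-05). The exons of SLC16A3 overlap CSNK1D on the opposite strand and the microRNA gene MIR6787, so reads in those stretches cannot be assigned.

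No difference in SLC16A1 passed the test. SLC16A1 (ENSG00000155380, chr1:112911847-112957013, minus strand), the more widely expressed carrier MCT1, was at 19.2, 10.1 and 14.5 TPM in vector and at 21.0, 15.7 and 25.4 TPM in HIF1α-ko. It was at 16.1, 26.4 and 26 TPM in HIF2α-ko and at 13.1, 23.8 and 26.5 TPM in HIF1α/2α-ko, so all 4 groups overlapped. The log2 changes against vector were 0.49, 0.62 and 0.49 (adjusted p = 0.238, 0.205 and 0.200), with 95% intervals from -0.16 to 1.14, -0.03 to 1.27 and -0.16 to 1.14. Each interval reaches past 1 log2 unit upwards, and without HIF1α/2α-ko replicate 1 the dual knockout passed (0.79, adjusted p = 0.0380). Reads shared with the antisense gene SLC16A1-AS1 cannot be assigned. The TPM of SLC16A3 was 6.33 to 13.2 times that of SLC16A1 in vector, 2.94 to 4.98 times in HIF1α-ko, 14 to 21.1 times in HIF2α-ko and 5.42 to 10.6 times in HIF1α/2α-ko. All HIF1α-ko ratios lay below, and all HIF2α-ko ratios above, those of vector.

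BSG was abundant, and none of its differences passed with all libraries and the deposited scaling. BSG (ENSG00000172270, chr19:571277-583493, plus strand) was at 1325, 1636 and 1634 TPM in vector, at 1485, 1431 and 1488 TPM in HIF1α-ko, at 1700, 1572 and 1563 TPM in HIF2α-ko and at 1484, 1325 and 1304 TPM in HIF1α/2α-ko, between place 79 and place 113 of a library. The 95% intervals of its log2 change against vector were -0.29 to 0.18 for HIF1α-ko (adjusted p = 0.734), -0.15 to 0.31 for HIF2α-ko (0.691) and -0.39 to 0.08 for the dual knockout (0.253). Without vector replicate 1 the difference in HIF1α/2α-ko passed (-0.26, adjusted p = 0.0296). HIF1α/2α-ko and HIF2α-ko did not overlap, and their difference of -0.23 missed the threshold (adjusted p = 0.0904). It passed after median ratio scaling (-0.54, adjusted p = 0.0191), without vector replicate 1 (-0.23, adjusted p = 0.0255) and with the replicate number as a block over the knockout groups (-0.23, adjusted p = 0.00770). The antisense gene AC009005.1 overlaps BSG, and its reads cannot be told apart.

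SLC4A7 rose in the dual knockout from a low level. SLC4A7 (ENSG00000033867, chr3:27372721-27484420, minus strand), the sodium-bicarbonate cotransporter, was at 2.46, 0.662 and 0.696 TPM in vector, at 1.43, 3.01 and 1.54 TPM in HIF1α-ko and at 1.85, 2.02 and 2.40 TPM in HIF2α-ko. These 3 groups overlapped, and neither single knockout passed against vector (log2 change 0.45, adjusted p = 0.319, and 0.53, adjusted p = 0.321). HIF1α/2α-ko was at 4.03, 8.43 and 8.45 TPM, above all other libraries. The mean of 6.97 ± 2.55 TPM was 5.47-fold that of vector at 1.27 ± 1.03 TPM (SD, n = 3; log2 change 1.84, SE 0.32, adjusted p = 0.000593). It was also higher than in HIF1α-ko (log2 change 1.39, adjusted p = 0.00701) and in HIF2α-ko (1.31, adjusted p = 0.00534). The vector libraries spread widely, and without replicate 1, which lay above the other pair, the dual knockout was 10.3-fold above vector (log2 change 2.19, adjusted p = 0.000142). The call in HIF1α/2α-ko held with each of the 12 libraries left out.

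**Figure D3:**
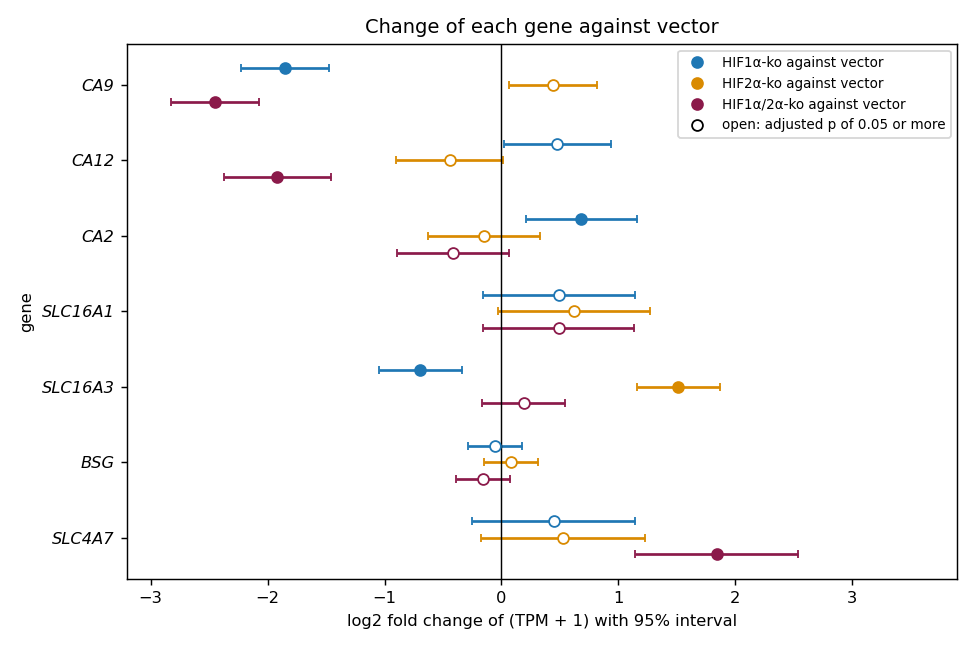
Log2 fold change of each gene against vector with its 95% interval, by knockout group (filled: adjusted p under 0.05, open: not). CA9 and CA12 lie far to the left in HIF1α/2α-ko, SLC16A3 lies on opposite sides in the single knockouts, and the intervals of BSG are the narrowest.

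Between the knockout groups, HIF1α/2α-ko against HIF1α-ko gave SLC16A3 and SLC4A7 higher and CA9, CA12 and CA2 lower, 2 and 3 of 7, where 17.7% and 10.6% of all genes passed. Against HIF2α-ko, the dual knockout gave SLC4A7 higher and CA9, CA12 and SLC16A3 lower, 1 and 3 of 7, where 33.5% and 12.9% passed. HIF1α-ko against HIF2α-ko gave CA12 and CA2 higher and CA9 (4.87-fold) and SLC16A3 lower, 2 and 2 of 7, where 17.8% and 7.37% passed. The higher CA2 in that comparison (log2 change 0.83, adjusted p = 0.0173) was lost without HIF1α-ko replicate 2 or 3 or HIF2α-ko replicate 3. These comparisons share libraries with each other and with those against vector, so they are not separate evidence.

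Whether losing both factors did more than the sum of the single losses was tested as an interaction on the log2 scale. It was negative and passed for CA12, CA9 and CA2, 3 of 7, and positive and passed for none, where 7.35% and 13.2% of all genes passed in those directions. For CA12 the single changes nearly cancelled while the dual change was -1.92, which gave an interaction of -1.95 (SE 0.30, adjusted p = 0.00174). For CA9 it was -1.04 (adjusted p = 0.0122), since HIF1α-ko lowered the gene, HIF2α-ko stood slightly above vector and the dual knockout was lowest. For CA2 it was -0.95 (adjusted p = 0.0484), and 13 of the alternative settings lost that call. For SLC16A3 the interaction of -0.63 did not pass (adjusted p = 0.0740), although it did without vector replicate 1 (-0.81, adjusted p = 0.00775). SLC4A7 had an interaction of 0.87 with a 95% interval from -0.12 to 1.85 (adjusted p = 0.195), so a dual change equal to the sum of the single ones lies within its error. SLC16A1 and BSG did not pass (adjusted p = 0.317 and 0.424).

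**Figure D4:**
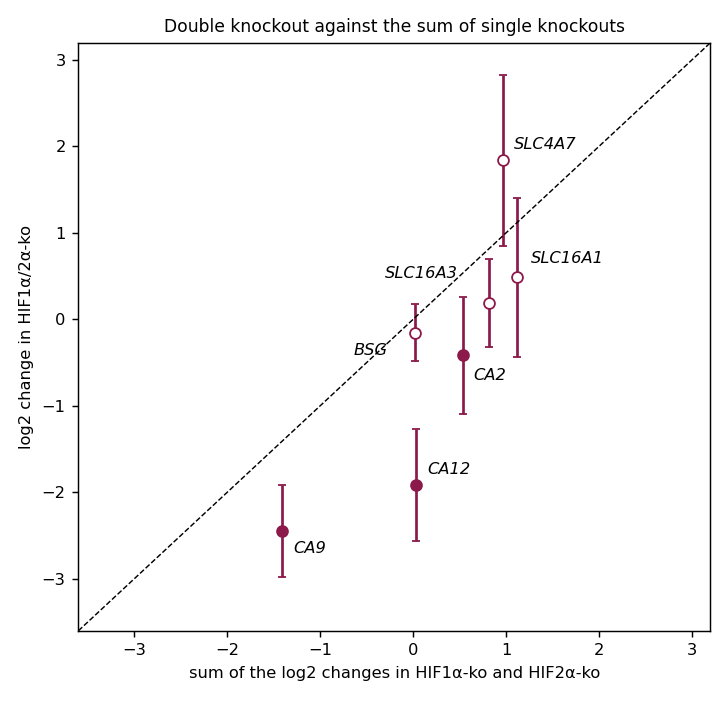
Log2 change in HIF1α/2α-ko (vertical) against the sum of the changes in HIF1α-ko and HIF2α-ko (horizontal), each against vector; bars are the 95% interval of the interaction, and the dashed line marks equality. Filled points have an interaction with adjusted p under 0.05; CA12 lies furthest below the line.

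The genes whose log2(TPM + 1) followed each member most closely over the 12 libraries were listed as a description, with no test. The libraries share 4 groups, so the 12 points behind Pearson's r are not independent. For CA9 these were AFMID (r = 0.982), HSPB7 (0.981) and PLXNB3 (0.979), and for CA12 they were SLC6A8, the creatine transporter (0.990), SPTLC3 (0.982) and MEFV (0.976). SLC16A3 was followed by SELENBP1 (0.975), CSRP2 (0.960) and MRPL17 (0.959). SLC4A7 was followed by TRIB1 (0.979) and PMAIP1 (0.972). Likeness was weaker for CA2 (BACH1, 0.954, BBS9, 0.943, and EFNB2, 0.942), for BSG (MZT2A, 0.914, UBXN6, 0.905, and AMPD2, 0.903) and for SLC16A1 (SLC16A13, 0.886, ZC3H10, 0.860, and TSSK6, 0.859).

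Other carbonic anhydrases contributed little mRNA. Of 12 further family members in the table, 4 passed the filter. None of the 4 passed the test in either single knockout with all libraries, and CA5B and CA13 rose in HIF1α/2α-ko. Over all genes, 17.3% were higher and 8.77% lower in HIF1α-ko, and 5.07% and 5.89% in HIF2α-ko. In HIF1α/2α-ko these shares were 31.8% and 14.8%. CA11, a catalytically inactive relative and the third most abundant of the family, was at 32.7 ± 5.05 TPM in vector and 34.8 ± 4.04 TPM in HIF1α/2α-ko (SD, n = 3; log2 change 0.09, adjusted p = 0.616). The mitochondrial enzyme CA5B was at 7.14 ± 1.6 TPM in vector and 12.7 ± 1.72 TPM in HIF1α/2α-ko (log2 change 0.76, adjusted p = 0.00581). CA13 was near the threshold (0.46, adjusted p = 0.0153) and was lost after median ratio scaling (adjusted p = 0.0897), after quantile normalization (0.187), in the fit of the compared groups (0.0714) and without vector replicate 2 or HIF1α/2α-ko replicate 2 (0.0504 and 0.0514). Without vector replicate 1, CA13 and CA14 passed as higher in HIF1α-ko (0.43 and 0.86) and CA11 in HIF2α-ko (0.41). The median log2 change of these 4 genes in HIF1α/2α-ko was 0.28, beside 0.21 over all genes.

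Of 16 other monocarboxylate carriers and chaperones, 5 were tested. In HIF1α-ko 1 rose and none fell, where 17.3% and 8.77% of all genes passed. In HIF1α/2α-ko 1 rose and 1 fell, where 31.8% and 14.8% passed. NPTN (neuroplastin), an alternative chaperone of the lactate carriers, rose in HIF1α-ko from 88.2 ± 17.1 to 171 ± 28.6 TPM (SD, n = 3; log2 change 0.95, adjusted p = 0.00435) and was at 78.6 ± 11 TPM in HIF1α/2α-ko. SLC16A13 rose in HIF1α/2α-ko from a low and scattered level (log2 change 1.32, adjusted p = 0.0444) with a call that 15 alternative settings lost. In HIF2α-ko none of the 5 passed with all libraries, where 5.07% of all genes were higher and 5.89% lower. Without vector replicate 1, SLC16A13 passed in HIF1α-ko and HIF2α-ko (1.93 in each). Their median changes were 0.27 for HIF1α-ko, -0.03 for HIF2α-ko and -0.16 for the dual knockout.

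Among 19 other bicarbonate and anion exchangers, 10 were tested. In HIF1α-ko 1 was lower and none higher, where 8.77% and 17.3% of all genes passed. None was called in HIF2α-ko (5.07% higher and 5.89% lower over all genes). In HIF1α/2α-ko 3 were higher and 2 lower, where 31.8% and 14.8% passed. SLC26A4 (pendrin), a chloride-bicarbonate exchanger, fell in both groups with HIF1α knocked out, from 1.95 ± 0.344 TPM in vector to 0.427 ± 0.214 TPM in HIF1α-ko (log2 change -1.05, adjusted p = 0.00108) and 0.230 ± 0.0917 TPM in HIF1α/2α-ko (-1.26, adjusted p = 6.30e-05). SLC4A4, a sodium-bicarbonate cotransporter like SLC4A7, fell in HIF1α/2α-ko from 0.735 ± 0.261 to 0.156 ± 0.0225 TPM (log2 change -0.58, adjusted p = 0.00403). Both means lie under 1 TPM, and SLC4A4 passed the filter through HIF1α-ko, where it was highest. SLC26A4 passed the filter through groups where it was high, vector among them. Both falls are given as descriptions of values near the floor. The ubiquitous anion exchanger SLC4A2 was the most abundant of the list, at 141 ± 52.9 TPM in vector, and passed in no knockout group (log2 changes 0.01, -0.15 and 0.07), except for a lower level in HIF2α-ko without vector replicate 1 (-0.51, adjusted p = 0.0243). SLC26A6 rose in HIF1α/2α-ko (0.70, adjusted p = 0.00364), a call lost under quantile normalization (0.42, adjusted p = 0.0557). SLC4A8 and SLC26A10, which the table holds as a pseudogene under the later symbol SLC26A10P, also passed as higher and were named after their values were seen; the SLC4A8 call (adjusted p = 0.0410) was lost in 12 alternative settings. The median change in HIF1α/2α-ko was 0.16.

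Of 16 sodium-proton exchangers and partners, 12 were tested. In HIF1α/2α-ko 4 rose and none fell, where 31.8% and 14.8% of all genes passed. CHP1, a cofactor of sodium-proton exchangers, went from 78.0 ± 10.6 TPM in vector to 133 ± 9.58 TPM (SD, n = 3; log2 change 0.77, adjusted p = 0.000567). The scaffold SLC9A3R1 (NHERF1) rose by 0.96 (adjusted p = 0.00439), a call lost after median ratio scaling, and SLC9B2, named after its values were seen, rose by 0.88. After that scaling the list had 3 higher and 3 lower in HIF1α/2α-ko, where 2760 and 2698 of all 11731 genes passed. In HIF1α-ko none of the 12 passed with all libraries, where 17.3% of all genes were higher and 8.77% lower. Without vector replicate 1, SLC9A8 and SLC9A9, named after their values were seen, passed there (0.90 and 0.52). In HIF2α-ko only SLC9A3, also named afterwards, was higher (0.69, adjusted p = 0.0472), a call that 11 alternative settings lost. Over all genes 5.07% were higher and 5.89% lower there. The medians were 0.24, 0.09 and 0.45.

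The vacuolar proton ATPase, which acidifies lysosomes and in some cells pumps protons across the plasma membrane, had 24 of 25 genes tested. In HIF1α-ko 4 rose and 1 fell, where 17.3% and 8.77% of all genes passed. In HIF2α-ko none rose and 2 fell, where 5.07% and 5.89% passed. In HIF1α/2α-ko 4 rose and 3 fell, where 31.8% and 14.8% of all genes passed. The split became 4 and 9 after median ratio scaling, where 2760 and 2698 of all 11731 genes passed. After quantile normalization it was 4 and 6, where 2829 and 2848 passed. Subunits of the membrane sector went both ways. In HIF1α/2α-ko, ATP6V0B went from 24.8 ± 3.42 TPM in vector to 94.4 ± 7.42 TPM (log2 change 1.89, adjusted p = 4.02e-06), and ATP6V0D1 from 55.6 ± 2.70 to 179 ± 3.36 TPM (1.67, adjusted p = 1.50e-06). ATP6V0A2 went from 0.722 ± 0.250 to 5.80 ± 1.62 TPM (1.96, adjusted p = 2.46e-05). Its vector mean lies under 1 TPM, and it passed the filter through groups where it was higher, so its rise is given as a description. All of these rose in HIF1α-ko too, ATP6V0B by 1.25 (adjusted p = 0.000373), ATP6V0D1 by 0.65 (0.00271) and ATP6V0A2 by 0.69 (0.0339). The last of these calls was lost in 5 alternative settings. ATP6V0D2, named after its values were seen, had the largest change of the list in HIF1α/2α-ko (2.73, adjusted p = 7.73e-05). Its levels are not given here, and that change is a description only. ATP6V0A4, ATP6V0E1 and ATP6V1B2, also named afterwards, fell (-0.89, -0.42 and -0.57, adjusted p = 0.0423, 0.0109 and 0.0335), and 12 alternative settings lost the ATP6V0A4 call and 5 the ATP6V1B2 call. ATP6V0C, which forms most of the membrane ring, was at 507 ± 118 TPM in vector and fell in HIF2α-ko to 185 ± 52.8 TPM (log2 change -1.46, adjusted p = 0.00852). It fell in HIF1α-ko as well (-1.01, adjusted p = 0.0225), and lost that call when vector replicate 2, vector replicate 3, HIF1α-ko replicate 1 or HIF1α-ko replicate 3 was left out (adjusted p = 0.0625 to 0.0867). In HIF1α/2α-ko it did not pass (-0.73, adjusted p = 0.0525), but did without vector replicate 1 (-0.94, adjusted p = 0.0256) and after median ratio scaling (-0.98, adjusted p = 0.0234). The most abundant subunit, ATP6V1F, passed in no group with all libraries, and without vector replicate 1 it passed as lower in HIF2α-ko (-0.43) and HIF1α/2α-ko (-0.36). The medians of the 24 genes were 0.17, -0.17 and -0.01.

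Among proton sensors and channels, the acid-sensing channel ASIC3 was higher in HIF1α-ko (log2 change 0.59, adjusted p = 0.0321) and in the dual knockout (0.65, adjusted p = 0.0104), with 7 alternative settings that lost the first call, and the second lost without HIF1α/2α-ko replicate 3 (0.51, adjusted p = 0.0553). ASIC3 did not pass in HIF2α-ko, and ASIC1 passed in no group.

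The enzymes that make lactate or divert pyruvate from it were measured in 10 of 12 genes. LDHA, the lactate dehydrogenase subunit that favours lactate, was at 1024 ± 411 TPM in vector and fell in HIF1α-ko to 446 ± 63.8 TPM (log2 change -1.13, adjusted p = 0.0128), a call lost without vector replicate 3 or HIF1α-ko replicate 3 (adjusted p = 0.0552 and 0.0563). It was at 815 ± 213 TPM in HIF2α-ko and 705 ± 224 TPM in the dual knockout, and neither passed (adjusted p = 0.564 and 0.156). The inhibitory pyruvate dehydrogenase kinases PDK1 and PDK3, named after their values were seen, fell with LDHA in HIF1α-ko (-1.78 and -1.74, adjusted p = 0.000156 and 0.000466). LDHB rose in HIF1α/2α-ko (0.79, adjusted p = 0.000753), as did MPC1, the mitochondrial pyruvate carrier subunit (1.37, adjusted p = 0.000140), and PDHA1, the pyruvate dehydrogenase subunit (1.10, adjusted p = 0.000125). MPC1 also rose in HIF1α-ko (1.17, adjusted p = 0.00173). LDHD, which oxidises D-lactate, rose in HIF2α-ko (1.10, adjusted p = 0.00174) and fell in HIF1α/2α-ko (-0.85, adjusted p = 0.000440). In all, 2 rose and 3 fell in HIF1α-ko, 2 rose and 1 fell in HIF2α-ko, and 4 rose and 5 fell in HIF1α/2α-ko, with medians of 0.06, -0.09 and -0.46. Over all genes the shares higher and lower were 17.3% and 8.77%, 5.07% and 5.89%, and 31.8% and 14.8%. Some of these calls were fragile. In HIF2α-ko, the higher PDK3 was lost in 12 alternative settings, and the lower PDK2, named afterwards, in 7. In HIF1α/2α-ko, the lower MPC2, also named afterwards, was lost in 9.

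**Figure D5:**
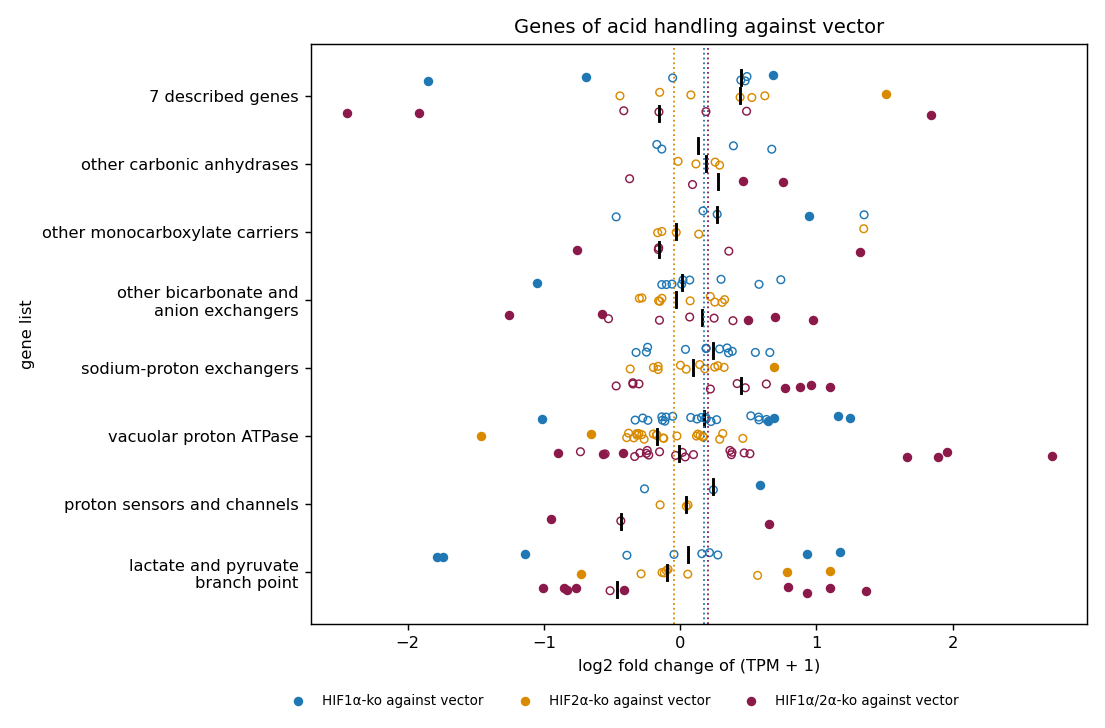
Log2 fold change against vector of each tested gene in the 7 described genes and 7 wider lists, coloured by knockout group (filled: adjusted p under 0.05, open: not); black ticks are list medians and dotted lines the medians of all 11731 genes. Most points lie within 1 log2 unit of 0, with CA9 and CA12 the lowest points in HIF1α/2α-ko.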

How the data were processed

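Messenger RNA was sequenced in 12 libraries of U87 cells, in 4 groups of 3 taken from the labels. The authors deposited TPM values for 20263 genes, 1 column per library, with no pooling. The submitters' processing notes name FastQC 0.11.2, Trimmomatic 0.36, HISAT2 2.0, bedtools 2.26.0 and the GRCh38 build; the counting tool, its strand setting and the annotation are not given in the sources used here. TPM keeps no depth, so no counting error or detection limit was computed, and a value of 0 means only that a gene is listed at 0; 3382 genes were listed at 0 in every library. The 3 vector columns were assigned because their names carry no knockout code. Symbols were matched for 20148 genes, and gene positions come from GENCODE 29.

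A gene entered the model when 3 or more libraries reached a TPM of 1, which left 11731. Values were fitted as log2(TPM + 1) by limma 3.58.1 (R 4.3.3) with the trend option of empirical Bayes, 1 model of 4 groups, and Benjamini-Hochberg adjustment within each of 7 contrasts. The fit was tested on simulated data. A pseudocount of 1 shrinks the changes of low genes. The 7 genes and the wider lists were chosen with earlier results of these data known, and no set test was run. Named genes were the 7, HIF1A and EPAS1, the 3 genes closest in pattern to each of the 7, and, of each wider list, the 3 most abundant tested genes and the 3 of lowest p in HIF1α/2α-ko; other genes are marked where they appear. Some genes that this rule names are not reported here. Alternatives were a pseudocount of 0.1, no filter, a mean TPM of at least 5, quantile normalization, median ratio scaling, fitting only the 2 groups compared, no trend, the replicate number as a block, and leaving out each library in turn.

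The replicate numbers were checked for pairing by correlating deviations from the group mean across genes. Among the knockouts, Pearson's r between same-numbered libraries lay at 0.463 to 0.508 (replicate 1), 0.227 to 0.250 (replicate 2) and 0.196 to 0.222 (replicate 3). Differently numbered libraries were not compared. Deviations from a mean of 3 libraries depend on each other, so a shared deviation of replicate 1 alone raises r for replicates 2 and 3. The r therefore cannot settle whether the numbers pair those groups, and the block was run only as an alternative. With vector, r lay at -0.0265 to 0.163, and no pairing was assumed. The main model held no block, also for comparisons between knockout groups. Replicate 1 stood apart in every group, and its part in these r was not tested. Tables used pandas 2.3.3 and numpy 2.4.6 under Python 3.11.15, and plots used matplotlib 3.10.9.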

Additional observations from a re-analysis of the deposited data

Results flagged for a closer look

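In 3 of the 7 genes, limma found an effect of HIF1α loss that differed with the state of HIF2α, where 7.35% of all tested genes had a negative and 13.2% a positive interaction that passed. The interaction on the log2 scale was -1.95 for CA12 (adjusted p = 0.00174), -1.04 for CA9 (adjusted p = 0.0122) and -0.95 for CA2 (adjusted p = 0.0484). CA12 was the clearest case: its TPM in HIF1α-ko overlapped vector, whereas HIF1α/2α-ko lay 2.81-fold below HIF2α-ko. The CA12 and CA9 interactions kept their call under every alternative run, and the CA2 interaction did not. HIF1A mRNA itself had an interaction of 1.15 (adjusted p = 0.0131). Its difference between HIF1α/2α-ko and HIF2α-ko did not pass, so HIF1A mRNA was not lowered alike with and without HIF2α. Groups of 3 libraries are too small for a formal search for single outlying libraries, so none was made. Vector replicate 1 was singled out from the correlations within its group alone.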

How the results depend on the processing

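Of 980 alternative values for the 7 genes, 927 kept their direction and side of the threshold, 30 lost the call and 12 gained one. The remaining 11 reversed, none of them a called value, and causes were not tested. Filters, trend, block and fits of only the 2 groups compared cannot alter a log2 change. Neither can leaving out a library of a group outside the comparison. For those values the direction was fixed in advance, and only the side of the threshold could move. The members higher in HIF1α-ko against vector went from 1 to 0 with a pseudocount of 0.1, no filter, a mean TPM of at least 5, median ratio scaling or only the compared groups (0 to 2 with a library left out, 2 without vector replicate 1). The filter at a mean TPM of 5, which tests 5 of the 7 genes, also left 0 higher in HIF1α/2α-ko against vector or HIF2α-ko, and 1 higher in HIF1α/2α-ko against HIF1α-ko and in HIF1α-ko against HIF2α-ko. With a library left out, the members higher ranged from 1 to 2 in HIF2α-ko against vector, HIF1α/2α-ko against vector and HIF1α-ko against HIF2α-ko.

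The values that reversed were small, and ranges are over the libraries left out. In HIF2α-ko against vector, CA2 ran from -0.26 to 0.015 and BSG from -0.022 to 0.13, both changing sign without vector replicate 1. SLC16A3 in HIF1α/2α-ko against vector was -0.057 after median ratio scaling and ran from -0.034 (without vector replicate 3) to 0.37. SLC16A1 ran from -0.19 to 0.29 in HIF1α/2α-ko against HIF1α-ko, from -0.36 to 0.16 against HIF2α-ko, and from -0.35 to 0.046 in HIF1α-ko against HIF2α-ko. SLC4A7 ran from -0.31 to 0.051 in the last comparison.

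With the replicate block over all 12 libraries, 2 members were higher in HIF2α-ko against vector, since CA9 passed there (adjusted p = 0.0126), and the CA2 interaction did not (adjusted p = 0.0525). The block over the 3 knockout groups changed 1 call, that of BSG given above. Over all genes it moved the higher and lower calls for HIF1α-ko against HIF2α-ko from 2084 and 865 to 4438 and 1489. Those for HIF1α/2α-ko against HIF1α-ko went from 2076 and 1246 to 3398 and 2286. Against HIF2α-ko they went from 3933 and 1509 to 5114 and 2225. The shares over all genes given for these comparisons come from the model without a block. EPAS1 passed in HIF1α-ko after median ratio scaling (-0.48, adjusted p = 0.0204). TPM keeps no depth, so the precision of the low genes CA2 and SLC4A7 is known only from the spread of 3 libraries.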
